A study of Mus musculus with 11 samples.

Results

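The genes named Zfp700 to Zfp999 are mouse genes for zinc finger proteins, many of them of the KRAB (Krüppel-associated box) type. They were taken by name: every gene listed as protein-coding whose symbol runs from Zfp700 to Zfp999. The rule found 98 genes of the 26283 in the deposited tables, which list 16314 protein-coding genes, and 228 protein-coding genes carry the lower names Zfp1 to Zfp699. A KRAB A box motif was found in the translated GENCODE proteins of 75 of the 98 (76.5%) and not in 23. Zfp703, Zfp704, Zfp706, Zfp710, Zfp711, Zfp740, Zfp750 and Zfp831 are among the 23, so the genes are called here by their names and not by KRAB. Among Zfp1 to Zfp699 the motif was found in 110 of 228 (48.2%). The proteins of the 98 held a median of 11 C2H2 finger motifs, from 0 to 23.

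In a KRAB zinc finger protein a row of C2H2 fingers reads DNA, and the KRAB domain binds the corepressor TRIM28. TRIM28 brings in the histone methyltransferase SETDB1, HP1 proteins and the NuRD complex, and the chromatin around the bound site is silenced. The family is best known for holding down retroviral and other transposable elements, and its genes often lie side by side in clusters of near copies that arose by duplication.

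Poly(A) RNA was sequenced from 11 mammary tumors, to compare tumors that lost Pcbp1, the gene of an RNA-binding protein, with tumors that kept it. The 6 PyMT Pcbp1–/– tumors carried MMTV-PyMT, MMTV-Cre and the floxed alleles Pcbp1(fl/fl), and the 5 PyMT Pcbp1+/+ tumors carried MMTV-PyMT and MMTV-Cre with Pcbp1(wt/wt). All came from female mice at 18 weeks of age. The methods describe the mice as C57BL/6. In their line the floxed allele stems from C57BL/6 animals, Cre from Tg(MMTV-cre)4Mam/J and the oncogene from a B6.FVB strain with MMTV-PyVT, and C57BL/6J was a further parent. The MMTV promoter directs both the oncogene and Cre to mammary epithelium, and these bulk values do not give Pcbp1 in the stroma apart. The labels give 1 batch for all libraries and do not say whether any tumors shared a mouse or a litter.

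Values are the deposited CPM, counts scaled to a common library total of 1e+06. Total counts ran from 10543189 to 14092192, with a median of 13135786 in the knockout tumors and 10975700 in the wild-type tumors. Over 6 against 5 tumors an exact permutation test of the mean totals, two-sided, gave p = 0.0173. A count of 3 in a library equals 0.213 to 0.285 CPM, and such floors cover counting error only. The members together took 24667 to 32707 counts per tumor, and the mean count of the middle member was 177. Of the 98, 60 averaged 10 CPM or more, 36 between 1 and 10, and 2 under 1. The filter on low counts kept 97; Zfp819, with a mean of 0.135 CPM, was the gene left untested.

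Pcbp1 itself, the deleted gene, had 15.4 CPM in the lowest knockout tumor, a median of 20.9 and 33.6 in the highest. The wild-type tumors held 268, 271, 225, 220 and 259 CPM. Every knockout tumor lay far below every wild-type tumor, so each library matched its label. The log2 fold change was -3.43 with a standard error (SE) of 0.19, at an adjusted p of 4.72e-06 in edgeR's quasi-likelihood test with Benjamini-Hochberg adjustment. In bulk tumors, fewer cells of a type and less RNA per cell cannot be told apart, here or for any gene that follows.

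Across the tested members, edgeR called 5 of 97 lower in the knockout at an adjusted p under 0.05, which is 5.15%, against 1.66% of the 19232 genes tested. These were Zfp951, Zfp781, Zfp711, Zfp932 and Zfp869. It called 0 members higher, against 0.608% of all genes. DESeq2 and limma-voom with sample quality weights each called 2 higher, Zfp820 and Zfp868, which is 2.06% of the members against 2.53% and 5.03% of all genes, and at an unadjusted p under 0.05 edgeR had 7. The 2 tools called 6 and 12 members lower (6.19% and 12.4%), against 3.8% and 6.19% of all genes. With a tumor left out edgeR called 2 to 6 lower, with 2 in 7 of the 11 fits, beside 0.755% to 2.05% of all genes. With the replicate number as a block it called 1 (1.03%), against 0.622% of all genes. At that unadjusted threshold 17 members were lower (17.5%, against 10.5% of all genes) and the 7 higher ones made 7.22%, against 8.19%. With an unadjusted p under 0.001 and a change of over 2-fold, 3 members were lower, Zfp951, Zfp781 and Zfp711, and 0 higher, against 0.572% and 0.229% of all genes.

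Every knockout tumor lay below every wild-type tumor for 4 members, Zfp781, Zfp932, Zfp869 and Zfp933, which is 4.12% of 97 against 2.02% of all genes. The reverse held for 0 members, against 1.27%. Within 0.2 of 0 on the log2 scale lay 55 of 97 members (56.7%), close to the 52.0% of all genes, and the quartiles were -0.22 and 0.08. The median was -0.06, with 62 members negative and 35 positive, beside a median of -0.00 and 50.0% negative over all tested genes. Summed over the 98, the members had 2273 ± 115 CPM in the knockout tumors (SD, n = 6) and 2372 ± 159 in the wild-type tumors (SD, n = 5), and the tumors overlapped.

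Other zinc finger genes had medians of the same size. The 222 tested genes from Zfp1 to Zfp699 had their median at -0.06, with 137 negative. EdgeR called 5 of them lower (2.25%, against 1.66% of all genes) and 1 higher (0.45%, against 0.608%). Among 198 tested protein-coding genes outside the named range with a KRAB motif and at least 3 finger motifs the median was -0.06. Of these, 4 were called lower (2.02%) and 1 higher (0.505%). For 262 such genes with fingers and no KRAB motif it was -0.06, with 6 lower (2.29%) and 1 higher (0.382%). The members had 5.15% lower and 0% higher. Within the members, the 74 tested with a KRAB motif had a median of -0.08, 49 negative and 4 lower (5.41%), and the 23 without it had -0.00, 13 negative and 1 lower (4.35%), beside 1.66% of all genes. These medians carry no test, and nothing in them is particular to the names Zfp700 to Zfp999.

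**Figure D1:**
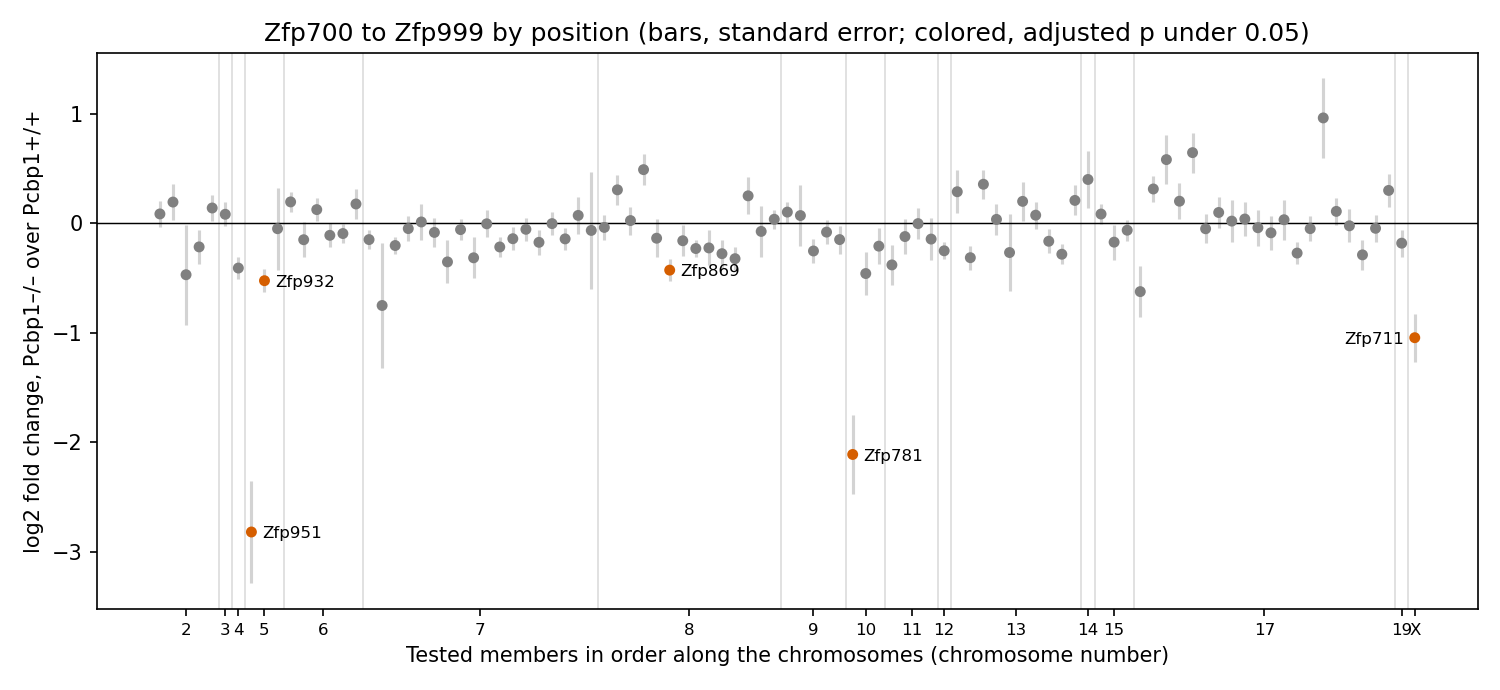
The log2 fold change of each of the 97 tested members, knockout over wild type, is drawn in order along the chromosomes, with bars of 1 standard error and vertical lines between chromosomes. The 5 colored points are the members at an adjusted p under 0.05 in edgeR, and all 5 lie below 0, with Zfp951 at -2.82 the lowest.

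Zfp951 (ENSMUSG00000072774.10, chr5:104813169-104860070 in GRCm38, minus strand) encodes a KRAB protein with 10 finger motifs. Its level in the knockout tumors was 0.639 CPM at the lowest, 1.30 at the median and 2.86 at the highest. The wild-type tumors had 8.50, 2.18, 14.5, 11.1 and 13.8 CPM. Wild-type replicate 2 lay above 5 of the 6 knockout tumors and below knockout replicate 6; the other tumors were well apart. This gave a log2 fold change of -2.82 (SE 0.47), the lowest of any member, at an adjusted p of 0.00974 in edgeR. In a fit with the replicate number as a block, over 10 tumors, edgeR's adjusted p was 0.0566; it stayed under 0.05 with any single tumor left out.

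Within 0.5 Mb of Zfp951 12 other genes were tested, 11 of them negative, with a median log2 fold change of -0.34. EdgeR called 0 of them, with 5 lower (41.7%, against 10.5% of all genes) and 0 higher at an unadjusted p under 0.05. DESeq2 called 3 lower (25%, against 3.8%) and limma-voom 1 (8.33%, against 6.19%), and neither called any higher. The 12 genes include the guanylate-binding genes Gbp4, Gbp6, Gbp8 and Gbp9 and the osteopontin gene Spp1, named after their values were seen. Gbp6 had 2.29 CPM in the lowest knockout tumor, 4.02 at the median and 5.40 in the highest, against 13.7, 6.46, 30.2, 12.7 and 3.66 CPM in the wild-type tumors. As for Zfp951, wild-type replicate 3 was the highest, but here the low wild-type tumor was replicate 5. For Spp1, at -1.53, replicate 3 was instead the lowest wild-type tumor, with 193 CPM, and Gbp8 and Gbp9 were at -0.25 and -0.36 with overlapping tumors.

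Zfp781 (ENSMUSG00000096718.2, chr10:81901911-81930480, minus strand) encodes a KRAB protein with 23 finger motifs, the highest count among the members, shared with Zfp748 and Zfp788. The same identifier carries the name Zfp781b in GENCODE vM39. It had 0.854 CPM in the lowest knockout tumor, 1.10 at the median and 2.94 in the highest, and 5.30, 11.9, 5.78, 5.29 and 5.00 CPM in the wild-type tumors. The groups did not overlap, and wild-type replicate 2 stood alone at about double the others of its group. On the log2 scale the change was -2.11 (SE 0.36), at an adjusted p of 0.0114 in edgeR. It was called in each of the 20 alternatives, and without wild-type replicate 2 the change was -1.80. Per kilobase of exon the average levels of Zfp781 and Zfp951 were alike, 0.924 and 0.970 CPM.

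**Figure D2:**
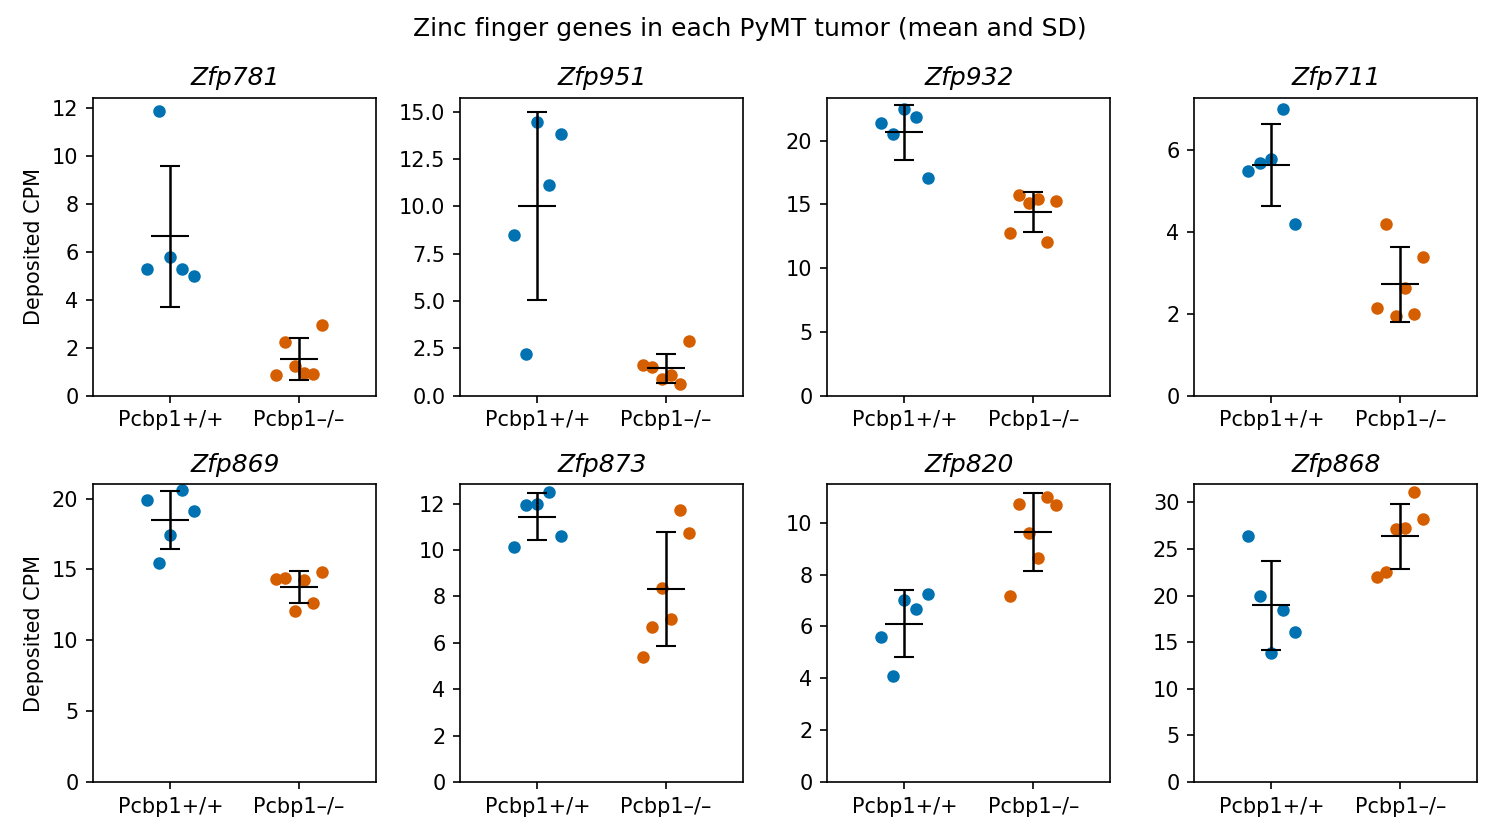
Each panel gives the deposited CPM of a zinc finger gene in the 5 Pcbp1+/+ tumors (blue) and the 6 Pcbp1–/– tumors (orange), with the mean and SD in black. Zfp781 separates the groups fully, Zfp951 does so but for the wild-type tumor at 2.18 CPM, and Zfp820 and Zfp868 lie higher in most knockout tumors.

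Sorted by chromosome and start and joined over gaps of up to 1 Mb, the 98 members formed 12 groups of at least 3, which together held 58 members. The group of Zfp781, Zfp873 and Zfp938 on chromosome 10, from 81901911 to 82241280, was the only one of the 12 with a median log2 fold change over 0.3 in size, at -0.46. All 3 were negative, and only Zfp781 was called. Summed over the 3 genes, the knockout tumors had 11.5 CPM at the lowest, 15 at the median and 21.5 at the highest, and the wild-type tumors 22.7, 30.1, 25.8, 23.8 and 21.5 CPM. The groups touched without overlap, at knockout replicate 6 and wild-type replicate 5.

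Zfp873 (chr10:82048123-82064745, plus strand, 16 finger motifs) had 5.38 CPM in the lowest knockout tumor, 7.69 at the median and 11.7 in the highest, against 10.1, 11.9, 12, 12.5 and 10.6 CPM in the wild-type tumors. In 4 knockout tumors it lay under all wild-type values, and knockout replicates 5 and 6 fell among them. Knockout over wild type, the log2 fold change was -0.46 (SE 0.20), at an adjusted p of 0.236 in edgeR. Zfp938 (chr10:82224850-82241280, minus strand, 10 finger motifs) ran from 4.39 CPM through a median of 5.65 to 7.81 in the knockout tumors, and had 7.22, 6.26, 8.06, 6.01 and 5.89 CPM in the wild-type tumors. The groups overlapped, with a log2 fold change of -0.21 (SE 0.17) and an adjusted p of 0.534 in edgeR; without wild-type replicate 3 the change was -0.09.

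Between the ends of the group, 6 more genes were tested and all 6 were negative, so 9 of 9 tested genes there were negative with the members counted. EdgeR called 3 of the 6 lower, where it called 1.66% of all genes lower. RP24-406I15.2 (AU041133 in GENCODE vM39, a KRAB gene with 14 finger motifs) had 4.02, 5.18 and 7.11 CPM at the lowest, median and highest of the knockout tumors. Its wild-type tumors lay close together at 11.7, 10.4, 11.2, 11.8 and 11.8 CPM, all above the knockout tumors. The log2 fold change was -1.06 (SE 0.15), at an adjusted p of 0.00387 in edgeR. RP24-406I15.4 and RP24-406I15.5, unclassified transcripts just past it on the same strand, were at -1.42 and -1.05, with adjusted p of 0.00373 and 0.0416 in edgeR. Whether they are transcribed apart from RP24-406I15.2 was not tested, so the 3 calls may not be of separate genes. RP24-406I15.3, a KRAB gene with 23 finger motifs, was at -1.37 and was not called, with an adjusted p of 0.113 in edgeR. These neighbors were named after their values were seen.

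Upstream of the group, RP24-258O12.2 (chr10:81742821-81771161, Gm3055 in GENCODE vM39) is a further KRAB gene with 23 finger motifs, also named after its values were seen. The knockout tumors had 1.69 CPM at the lowest, 1.95 at the median and 3.00 at the highest, and the wild-type tumors 7.40, 13.2, 7.27, 6.01 and 6.61 CPM. No tumors overlapped, and wild-type replicate 2 was the highest, as it was for Zfp781. This gave a log2 fold change of -1.89 (SE 0.24), at an adjusted p of 0.00320 in edgeR. Counted within 0.5 Mb of Zfp781, 28 other genes were tested, 21 negative and 5 called lower by edgeR (17.9%, against 1.66% of all genes); DESeq2 and limma-voom each called 8 lower (28.6%, against 3.8% and 6.19%), and none of the 3 tools called any higher, with 1 at an unadjusted p under 0.05 in edgeR. The fifth was Ankrd24, an ankyrin repeat gene with no finger motif, at -0.87. Of the 5, RP24-406I15.5 kept its call in 3 and Ankrd24 in 5 of 11 fits with a tumor left out, and the others in all 11. Of 10 KRAB zinc finger genes among the 28, 8 were negative, and their median was -0.44. RP24-219P17.1 and RP24-219P17.2 were the KRAB genes above 0, at 0.08 and 0.19, and lie between lowered genes.

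**Figure D3:**
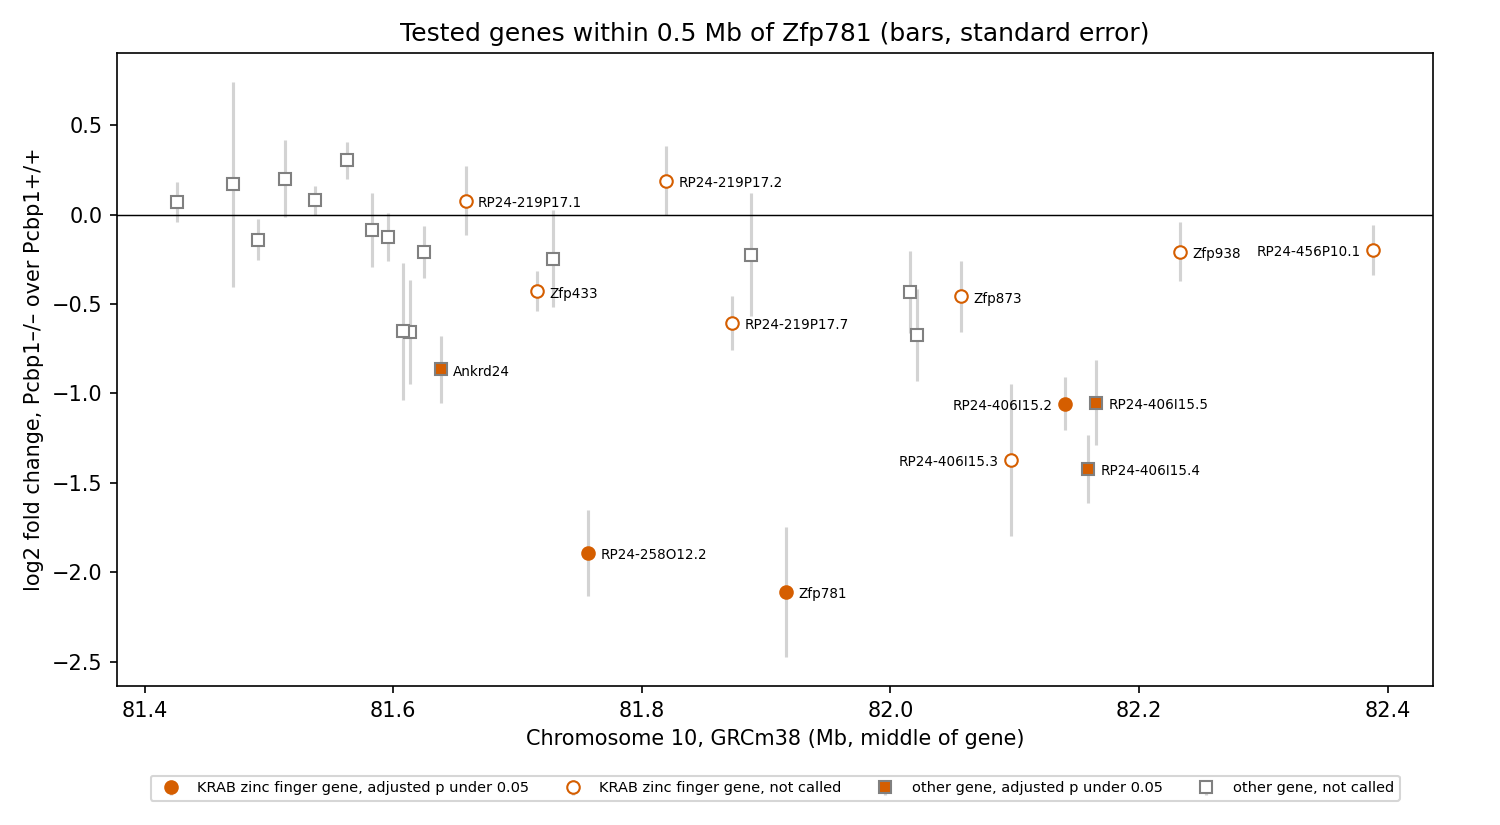
Log2 fold changes, knockout over wild type, of Zfp781 and the 28 other tested genes within 0.5 Mb of it are drawn at the middle of each gene on chromosome 10 (GRCm38), with bars of 1 standard error. Circles are KRAB zinc finger genes and squares other genes, and filled points passed an adjusted p under 0.05 in edgeR; Zfp781 and RP24-258O12.2 are the lowest at -2.11 and -1.89.

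Near copies in such a cluster share sequence, and neither the counting step nor the treatment of reads that match several genes is stated, so how reads were shared among Zfp781, RP24-258O12.2 and the other copies is uncertain. No value of Zfp781, Zfp873 or Zfp938 was a fraction of a count (0% of values, to a tolerance of 1e-06). Over all members 12.4% of values were fractions, against 18.7% over all genes. Fractions occurred in 25 members, of which 11 overlap no other annotated gene and 14 do. Zfp708, for example, overlaps 4 genes and had fractions in all 11 tumors, so its values are uncertain. A further 15 members overlap a gene and had no fractions. Zfp873 is among them, with RP24-545B2.5 on the opposite strand, and the use of strand in counting is not stated.

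The promoters of the 3 chromosome 10 members are shown because Zfp781 was called and the other 2 lie beside it, with that of Zfp951 beside them as the member with the lowest log2 fold change. They are the 250 bases before a RefSeq start in GRCm38.p6, the one nearest the deposited gene start where there were 2 (all but Zfp781), credited to RefSeq, 5′ to 3′ on the gene's strand, with each CG in capitals. Zfp781 is at chr10:81930513-81930762 (minus), Zfp873 at chr10:82047873-82048122 (plus), Zfp938 at chr10:82241281-82241530 (minus) and Zfp951 at chr5:104860069-104860318 (minus).
Zfp781: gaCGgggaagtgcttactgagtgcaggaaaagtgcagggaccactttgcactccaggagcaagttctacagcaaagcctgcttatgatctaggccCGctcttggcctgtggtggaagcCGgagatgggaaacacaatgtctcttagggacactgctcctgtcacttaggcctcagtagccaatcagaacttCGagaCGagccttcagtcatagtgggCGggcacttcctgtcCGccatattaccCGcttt
Zfp873: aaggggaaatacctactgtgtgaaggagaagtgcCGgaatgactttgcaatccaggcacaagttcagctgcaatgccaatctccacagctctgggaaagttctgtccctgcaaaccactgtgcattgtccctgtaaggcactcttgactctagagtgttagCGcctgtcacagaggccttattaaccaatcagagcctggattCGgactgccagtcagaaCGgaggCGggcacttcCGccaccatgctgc
Zfp938: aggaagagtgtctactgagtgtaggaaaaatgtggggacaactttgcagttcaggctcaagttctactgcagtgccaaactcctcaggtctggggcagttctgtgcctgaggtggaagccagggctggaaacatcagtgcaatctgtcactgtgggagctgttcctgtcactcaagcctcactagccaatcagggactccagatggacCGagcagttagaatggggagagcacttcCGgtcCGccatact
Zfp951: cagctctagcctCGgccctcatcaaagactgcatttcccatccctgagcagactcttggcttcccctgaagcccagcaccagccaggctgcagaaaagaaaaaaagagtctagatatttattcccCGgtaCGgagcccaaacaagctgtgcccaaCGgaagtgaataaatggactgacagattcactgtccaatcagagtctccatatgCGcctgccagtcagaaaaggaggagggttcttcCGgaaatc
Aligned over 250 bases, Zfp781 and Zfp938 were identical at 72.4% of positions, Zfp873 and Zfp938 at 68.8%, and Zfp781 and Zfp873 at 64.4%. Against Zfp951 the chromosome 10 promoters reached 50.4%, 53.6% and 52.4%. The 4 held 8, 6, 3 and 6 CG.

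RefSeq promoters were found for 86 members, 102 promoters of 32851 in the table. Their median number of CG in 250 bases was 8, against 6 over all promoters. Of 3 motifs searched on both strands, the E-box CACGTG was in 13.7% of the members' promoters and 6.02% of all. Of the members with it, Zfp758, Zfp820, Zfp942, Zfp943, Zfp944, Zfp946, Zfp947 and Zfp994 lie in 1 group on chromosome 17, from Zfp948 to Zfp945. Zfp708, Zfp747, Zfp791, Zfp819, Zfp871 and Zfp933 lie outside that group. The E-box share is thus not spread evenly over the members. The interferon response element-like GAAANNGAAA was in 1.96% and 2.98%, and the cyclic AMP response element TGACGTCA in 1.96% and 1.55%. Matches of different motifs that share bases were each counted, and none of the motifs is in any of the 4 promoters shown. The motifs were chosen after expression values were seen, and a match is a description of letters only.

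Zfp932 (chr5:109996521-110010411, plus strand) encodes a KRAB protein known to bind and repress endogenous retroviruses in embryonic stem cells. It had 12.1 CPM in the lowest knockout tumor, 15.2 at the median and 15.7 in the highest, and 21.4, 20.5, 22.5, 21.9 and 17.1 CPM in the wild-type tumors. The groups did not overlap, with wild-type replicate 5 the nearest to the knockout. On the log2 scale the change was -0.52 (SE 0.11), at an adjusted p of 0.0274 in edgeR. The call ended when knockout replicate 1, 3, 4 or 5 or wild-type replicate 1, 3 or 4 was left out, with adjusted p in edgeR of 0.0541, 0.0606, 0.0522, 0.0573, 0.0542, 0.0716 and 0.0707 in that order, and in the replicate block fit, at 0.0611. Around it, 14 of 21 tested genes within 0.5 Mb were negative, and edgeR called 0. At an unadjusted p under 0.05 edgeR had 5 lower (23.8%, against 10.5% of all genes) and 0 higher. DESeq2 and limma-voom each called 1 lower (4.76%, against 3.8% and 6.19% of all genes) and 0 higher.

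Zfp869 (chr8:69706332-69710724, minus strand), a KRAB gene with 13 finger motifs, ran from 12.1 CPM through a median of 14.3 to 14.8 in the knockout tumors. Its wild-type values were 19.9, 15.5, 17.4, 20.6 and 19.1 CPM, without overlap, and replicate 2 was the lowest. Knockout over wild type, the log2 fold change was -0.43 (SE 0.10), at an adjusted p of 0.0446 in edgeR, just inside the threshold. Of 23 other tested genes within 0.5 Mb, 14 were negative. EdgeR called 1 lower, Atp13a1 (4.35%, against 1.66% of all genes), and 0 higher. That call ended in the replicate block fit, at an adjusted p of 0.0895 in edgeR. At an unadjusted p under 0.05 edgeR had 6 lower (26.1%, against 10.5%) and 1 higher. DESeq2 called 2 lower and 1 higher (8.70% and 4.35%, against 3.8% and 2.53%). Limma-voom called 4 and 2 (17.4% and 8.70%, against 6.19% and 5.03%). Leaving out any tumor other than wild-type replicate 2 ended the call of Zfp869. EdgeR's adjusted p rose to 0.0694, 0.0562, 0.103, 0.0851, 0.104 and 0.0586 without knockout replicates 1 to 6. It rose to 0.0880, 0.106, 0.112 and 0.0768 without wild-type replicates 1, 3, 4 and 5, and was 0.127 in the replicate block fit. Zfp933 (chr4:147822986-147848366), with no overlap either, lay just outside the threshold at -0.41 (SE 0.10) and an adjusted p of 0.0530 in edgeR. Its knockout tumors had 19.0, 24.6 and 27.1 CPM at the lowest, median and highest, and its wild-type tumors 36.9, 30.4, 29.4, 31.8 and 31.6 CPM.

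Zfp711 (chrX:112600526-112635070, plus strand) has 11 finger motifs and no KRAB motif. It is an activator of the ZFX family, and its human counterpart is linked to intellectual disability. The knockout tumors had 1.96 CPM at the lowest, 2.38 at the median and 4.20 at the highest, against 5.48, 5.69, 5.78, 7.02 and 4.20 CPM in the wild-type tumors. The groups met at knockout replicate 2 and wild-type replicate 5, and 5 of 6 knockout tumors lay under every wild-type tumor. The log2 fold change was -1.04 (SE 0.22), at an adjusted p of 0.0297 in edgeR. Without knockout replicate 1, 3, 4 or 5 or wild-type replicate 1, 3 or 4 the call ended, at adjusted p of 0.0579, 0.0728, 0.0694, 0.0715, 0.0559, 0.0759 and 0.0872 in edgeR, and in the replicate block fit it was 0.0586. Of the 7 tested genes within 0.5 Mb, 5 were negative and edgeR, DESeq2 and limma-voom called 0, with 0 lower and 1 higher at an unadjusted p under 0.05 in edgeR.

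No member rose past the threshold in edgeR, but a few were higher in most knockout tumors. Zfp820 (chr17:21816876-21845759, minus strand, a KRAB gene) had 7.18 CPM in the lowest knockout tumor, 10.1 at the median and 11.0 in the highest, and 5.57, 4.08, 7.01, 6.65 and 7.23 CPM in the wild-type tumors. In 5 of 6 knockout tumors it lay above all wild-type tumors, and knockout replicate 1 fell just under wild-type replicate 5. This gave a log2 fold change of 0.65 (SE 0.18), at an adjusted p of 0.0880 in edgeR. Zfp868 (chr8:69610857-69625548, minus strand, also KRAB) had 22.0, 27.2 and 31.1 CPM at the lowest, median and highest of the knockout tumors. Its wild-type tumors had 26.4, 19.9, 13.8, 18.5 and 16.1 CPM, and replicate 1 fell among the knockout values. On the log2 scale the change was 0.49 (SE 0.14), at an adjusted p of 0.0924 in edgeR.

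Zfp811 (chr17:32795676-32809853, minus strand), a KRAB gene, had the largest positive change of any tested member, 0.96 (SE 0.36), at an adjusted p of 0.179 in edgeR. Its knockout tumors had 1.88 CPM at the lowest, 2.49 at the median and 6.22 at the highest, and its wild-type tumors 0.822, 1.90, 1.31, 2.28 and 1.61 CPM. Knockout replicate 2 was far above the rest, and without it the change was 0.66. Zfp934 on chromosome 13 (0.36) and Zfp948 on chromosome 17 (0.32) were each above all wild-type tumors in 5 of 6 knockout tumors and were not called, with adjusted p of 0.169 and 0.172 in edgeR. Zfp934 overlaps 2 other annotated genes, so its counts are uncertain.

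Zfp709, Zfp882 and Zfp961, within chr8:71882019-71993792, were all negative with a median of -0.28, and so were the 3 other tested genes between them. EdgeR, DESeq2 and limma-voom called 0 of the 6. At an unadjusted p under 0.05 edgeR and DESeq2 each had 2 lower (33.3%, against 10.5% of all genes in edgeR). Limma-voom had 5 lower (83.3%) at that threshold, and each tool had 0 higher. No share of all genes at that threshold was counted for DESeq2 or limma-voom, so their counts cannot be judged. In limma-voom 6.19% of all genes were lower at an adjusted p under 0.05, against 1.66% in edgeR. The summed level of Zfp709, Zfp882 and Zfp961 was 33.1 CPM at the lowest, 37.2 at the median and 42.3 at the highest of the knockout tumors. The wild-type tumors had 49.3, 53.7, 45.8, 46.3 and 34.2 CPM, and replicate 5 fell among the knockout tumors. The largest group, 12 members from Zfp948 to Zfp945 on chromosome 17, held 8 positive and 4 negative members with a median of 0.04, and its summed CPM overlapped, 142 to 202 in the knockout and 147 to 187 in the wild-type tumors. In the group of 6 from Zfp930 to Zfp866 on chromosome 8, Zfp869 was at -0.43 and was called lower by edgeR. Its call ended in 14 of the 20 alternatives. Zfp868, about 0.1 Mb away, was at 0.49 and was not called, with an adjusted p of 0.0924 in edgeR. Zfp808, Zfp935 and Zfp934 on chromosome 13 had a median of 0.29, from -0.31 to 0.36. On chromosome 7, 16 of 18 tested members were negative, with a median of -0.11; edgeR and DESeq2 called 0 and limma-voom 1 lower (5.56%, against 6.19% of all genes), and edgeR had 2 lower (11.1%, against 10.5%) and 0 higher at an unadjusted p under 0.05. On chromosome 6, which carries Pcbp1, 3 of 6 were negative, with a median of 0.02.

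Levels per kilobase of exon differed widely among the members. Zfp750, a factor of epidermal differentiation without a KRAB motif, had the highest average, 18.7 CPM per kilobase, and Zfp704 had 17.0, while Zfp831 at 0.0795 and Zfp819 at 0.0365 were the lowest. Zfp704 also had the highest mean CPM, 263, followed by Zfp871 (134), Zfp740 (103), Zfp950 (97.5) and Zfp710 (94.0). On the log2 scale these 5 abundant genes were at 0.08, -0.05, -0.06, -0.18 and -0.05. With a tumor left out they ran from 0.04 to 0.16, -0.09 to 0.03, -0.13 to -0.01, -0.26 to -0.14 and -0.12 to -0.01. Zfp750 was at -0.14 (SE 0.19), with 106 CPM in knockout replicate 2 and 49.3 to 70.0 in the other knockout tumors; it was at -0.32 without that tumor and at -0.04 without wild-type replicate 2.

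Zfp703, which encodes a corepressor of the NET family and whose human counterpart is amplified in some luminal breast cancers, had 29.9 CPM in the lowest knockout tumor, 38.4 at the median and 53.1 in the highest. The wild-type tumors had 34.0, 33.9, 32.2, 26.6 and 33.3 CPM, and 5 of 6 knockout tumors lay above them all. Knockout over wild type, the log2 fold change was 0.31 (SE 0.14), at an adjusted p of 0.250 in edgeR. Zfp706, a short protein that holds down Klf4 in embryonic stem cells, was at 0.09 (SE 0.09), and Zfp746, the PARIS repressor of Ppargc1a, at -0.09 (SE 0.09); with a tumor left out they ran from 0.05 to 0.13 and from -0.12 to -0.03.

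Among KRAB proteins with a known retroviral target, Zfp809, which silences murine leukemia virus through its primer binding site, ran from 24.8 CPM through a median of 27.7 to 30.1 in the knockout tumors, and had 42.5, 27.5, 31.0, 38.6 and 26.4 CPM in the wild-type tumors. Wild-type replicates 1 and 4 were high and replicates 2 and 5 fell among the knockout tumors. The log2 fold change was -0.25 (SE 0.11), at an adjusted p of 0.236 in edgeR and 0.0446 in limma-voom. Zfp961, which also binds a retroviral primer binding site, was at -0.32 (SE 0.10) with an adjusted p of 0.122 in edgeR, and Zfp708, which binds repeats in oocytes, at -0.27 (SE 0.35) with 0.722; Zfp708 was at -0.05 without wild-type replicate 1. Expression of the elements themselves was not measured here.

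The partners of KRAB repression were read from a list of 33 genes, all of them tested. At an adjusted p under 0.05 edgeR called 1 lower (3.03%, against 1.66% of all genes) and 0 higher (against 0.608%). DESeq2 called 1 lower and 2 higher (3.03% and 6.06%, against 3.8% and 2.53% of all genes), and limma-voom 1 and 3 (3.03% and 9.09%, against 6.19% and 5.03%). At an unadjusted p under 0.05 edgeR had 1 lower (3.03%, against 10.5% of all genes) and 2 higher (against 8.19%). DESeq2 had 1 lower and 4 higher at that threshold, and limma-voom 3 and 13. The share of all genes at that threshold was counted for edgeR only, so the counts of the other tools cannot be judged. The median log2 fold change in edgeR was 0.05 with 23 positive. Trim28 had 68.8, 85.2 and 92.6 CPM at the lowest, median and highest of the knockout tumors and 75.3, 98.6, 59.2, 65.1 and 70.3 CPM in the wild-type tumors. It overlapped fully, at 0.16 (SE 0.13) and an adjusted p of 0.556 in edgeR, and ran from 0.10 to 0.28 with a tumor left out. Setdb1 was at -0.11 (SE 0.09), with an adjusted p of 0.577 in edgeR and a range of -0.17 to -0.07. Cbx5, which encodes an HP1 protein and was the most abundant partner, had 227, 254 and 355 CPM at the lowest, median and highest of the knockout tumors, just above all wild-type tumors at 225, 216, 197, 217 and 197 CPM. It was at 0.36 (SE 0.12), with an adjusted p of 0.127 in edgeR, 0.0475 in DESeq2 and 0.0272 in limma-voom.

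The partner that was called was Ehmt2 (chr17:34898469-34914052), the gene of the histone methyltransferase G9a, which marks silent chromatin. It had 29.4 CPM in the lowest knockout tumor, 36.8 at the median and 37.7 in the highest, against 55.7, 53.9, 53.2, 61.7 and 70.8 CPM in the wild-type tumors. The groups lay well apart, and knockout replicate 6 was the lowest of all. This gave a log2 fold change of -0.74 (SE 0.11), at an adjusted p of 0.00480 in edgeR, and it was called in each of the 20 alternatives.

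Cell type markers were read beside these results, 44 genes of which 41 are in the tables and 37 were tested. EdgeR called 0 in either direction. At an unadjusted p under 0.05 it had 1 lower (2.70%, against 10.5% of all genes) and 4 higher (against 8.19%). DESeq2 called 4 higher (10.8%, against 2.53% of all genes) and limma-voom 5 (13.5%, against 5.03%), and both called 0 lower. The luminal epithelial markers were present, led by Cdh1, and summed to 943 to 1594 CPM in the knockout and 1160 to 1655 in the wild-type tumors. The 5 macrophage markers were all positive with a median of 0.33, led by Lyz2, and summed to 184, 255 and 321 CPM at the lowest, median and highest of the knockout tumors, against 177, 85.8, 215, 136 and 95.4 CPM in the wild-type tumors. The 5 markers of dividing cells were all positive with a median of 0.49, led by Mki67, and summed to 388, 569 and 624 CPM in the same order, against 294, 447, 371, 462 and 398 CPM. No marker of either list was at 0 in all tumors, the groups overlapped in both sums, and their part in the members' values was not tested. The 4 endothelial (median -0.20) and 4 adipocyte markers (-0.81) were all negative. In the adipocyte sum wild-type replicate 3 stood far above every other tumor. The other wild-type tumors had 2.85 to 9.02 CPM, inside the knockout range of 0.852 to 26.3 CPM. The adipocyte change without that tumor was not tested. The 4 fibroblast markers had a median of 0.24, the 6 basal markers 0.11 and the 3 tested T cell markers -0.12. The marker lower at an unadjusted p under 0.05 was the basal Krt14, at -2.42 (SE 0.86) and an adjusted p of 0.160 in edgeR, with 277 CPM in wild-type replicate 2 and 4.64 to 47.6 in the other wild-type tumors. That tumor was also the highest for Zfp781 and RP24-258O12.2 and the lowest of its group for Zfp951, and without it the 3 were at -1.80, -1.65 and -3.08, each called by edgeR, and Krt14 at -0.60. The basal markers, led by Mylk, were 2 negative and 4 positive and summed to 102 to 454 CPM in the knockout tumors and 820, 392, 245, 259 and 80.7 CPM in the wild-type tumors. Of 4 B cell markers only Cd79b is in the tables, under 1 CPM in every tumor.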

How the data were processed

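Libraries were stranded poly(A) RNA of 11 tumors. Per the labels and methods, the authors checked paired-end NovaSeq reads with FastQC, aligned them to GRCm38 with Bowtie2 and went on in Partek Flow; the counting step, its use of strand and the annotation version are not stated. The deposited tables hold estimated counts per gene, and deposited CPM, which matched counts over library totals within 0.146%. Rounded counts were fitted in edgeR 4.0.16 (TMM, default filter, quasi-likelihood F test, two-sided, genotype only) in R 4.3.3, with Benjamini-Hochberg adjustment over 19232 genes. SE is the log2 fold change over the square root of F. Alternatives used DESeq2 1.42.0, limma 3.58.1, library sizes with no factor, factors from the upper quartile, 2 other low-count filters, log2(CPM + 1), protein-coding genes only, the replicate number as a block and each tumor left out. The steps were tested on simulated counts.

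The permutation p counts all 462 splits with as large an absolute difference in mean totals; doubling the smaller tail gave an exact p of 0.00866. GENCODE vM39 supplied proteins, exon lengths and newer names by gene identifier; all 98 members matched. A C2H2 motif is C, 2 or 4 residues, C, 12 residues, H, 3 to 5 residues, H. The first KRAB pattern found 61 members and was widened after it missed known KRAB genes; the wide pattern also matches 0.549% of 15307 protein-coding genes without a C2H2 motif. The deposited stop lay 1 base past the RefSeq end in 4532 of 14937 protein-coding genes matched by symbol and at that end in 394, so 1 base was taken off each stop.

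Genes were named by a rule: Pcbp1; Zfp781, Zfp951 and Zfp873; members called by edgeR; the 5 lowest p in each direction; the members of the Zfp781 group; members of known role; the 5 with the highest mean CPM and the ends of ranges; Trim28, Setdb1 and called partners. Genes outside it, the 0.5 Mb windows, the other zinc finger lists and the motifs were chosen after values were seen. The members and lists were chosen with earlier results of these data known.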

Additional observations from a re-analysis of the deposited data

Results flagged for a closer look

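Over 29 named genes, the sums of the 12 chromosomal groups and the sum of all members, each read by genotype, 84 sets of values were searched and 5 held a tumor that stood apart by Dixon's ratio of gap to range, where chance gives about 4.2. Zfp781 had 11.9 CPM in wild-type replicate 2, with the nearest wild-type tumor at 5.78. Zfp703 had 26.6 CPM in wild-type replicate 4, below the nearest at 32.2. Zfp750 had 106 CPM in knockout replicate 2, with the nearest at 70.0. Zfp740 had 123 CPM in knockout replicate 5, with the nearest at 102. Ehmt2 had 29.4 CPM in knockout replicate 6, below the nearest at 35.4. What set these tumors apart was not tested.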

How the results depend on the processing

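Over 20 alternatives, 538 of 577 values of 29 single genes kept their direction and their side of the threshold, 31 lost their call, 5 gained one (Zfp820 and Zfp868 in DESeq2 and limma-voom, Zfp809 in limma-voom) and 3 changed sign. The sign changes were all of the uncalled Zfp871, at 0.064 in limma-voom, 0.016 without knockout replicate 1 and 0.027 without wild-type replicate 5, the highest of a range from -0.090 with a tumor left out; the cause was not tested. The count of lower members, 5 in edgeR, was 12 in limma-voom, where 6.19% of all genes were lower against 1.66% in edgeR, and ran from 2 to 6 with a tumor left out, beside 0.755% to 2.05% of all genes; it was 2 without knockout replicate 1, 3, 4 or 5 or wild-type replicate 1, 3 or 4, and Zfp781 and Zfp951 were called each time. Fits without a tumor rest on fewer samples. The count of higher members, 0 in edgeR, was 2 in DESeq2 and 2 in limma-voom, beside 2.53% and 5.03% of all genes, and the cause was not tested. Zfp869 also lost its call with library size only (adjusted p 0.0610 in edgeR), without a filter (0.0660 in edgeR) and in limma on log2(CPM + 1) (0.0697), within a range of 0.00554 to 0.127 over its alternatives; the cause was not tested.

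The members' median ran from -0.09 to -0.03 with a tumor left out and from -0.09 to -0.05 otherwise. Joining over 0.5 Mb gave 12 groups of at least 3 members and over 2 Mb 14. In TMM-adjusted CPM 6 members did not overlap, against 4 in deposited CPM. The share of all genes on the TMM-adjusted scale was not counted, so the 6 cannot be judged. Replicate numbers correlated between the genotypes at 0.13, 0.09, -0.08, -0.14 and 0.29 across genes, and not every tumor correlated best with its own number. The labels do not say that the numbers pair tumors. Such correlations cannot exclude a pairing, for example by litter. In the replicate block fit, over 10 tumors, edgeR called 1 member lower, Zfp781, and 0 higher (13 and 7 at an unadjusted p under 0.05). The calls made 1.03% and 0% of the members, against 0.622% and 0.221% of all genes in that fit. Adjusted p in edgeR was 0.0566 for Zfp951, 0.0611 for Zfp932, 0.0586 for Zfp711 and 0.127 for Zfp869. The block changed no other call among the 29 genes. Among called neighbors, RP24-406I15.5 (0.155), Ankrd24 (0.0566) and Atp13a1 (0.0895) also lost their calls in that fit. Changes in members near the floor of 3 counts were not detectable at this depth.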
